A study of Mus musculus with 2 samples.

Results

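Complement genes named by symbol were followed across the cell classes of primary tumours and lymph nodes. They were the 9 genes C1qa, C1qb, C1qc, C3, C4b, Cfb, C3ar1, C5ar1 and Serping1, and all were found among the 22620 genes listed in both libraries. The rule that chose them was a list of complement gene symbols and used no measured value, although earlier results of these data were known. The data were single-cell 3′ transcript counts (unique molecular identifiers, UMIs) from C57BL/6J mice carrying EO771-HEVM3 tumours. The EO771 line comes from a mouse mammary tumour, and its derivative HEVM3 was enriched in mice for cells that spread through high endothelial venules, the blood vessels by which lymphocytes enter lymph nodes. The primary tumours of 6 mice made up 1 library and their paired lymph nodes the other, with no untreated group and no map from cells to mice. Tumour and lymph node pieces were dissociated with different enzymes and for different times, so tissue and dissociation cannot be told apart in any comparison between them.

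Complement is a cascade of proteins, best known from blood plasma, that tags cells and particles for uptake and can open pores in membranes. In the classical pathway, C1q binds antibody or damaged surfaces, its partner proteases C1r and C1s cut C4 and C2, and the resulting enzyme cuts C3. Factor B amplifies the cut of C3 in the alternative pathway, the fragments C3a and C5a attract and activate leukocytes through their own receptors, and the C1 inhibitor (Serping1) blocks C1r and C1s. The liver makes most plasma complement, whereas C1q comes mainly from macrophages and related myeloid cells, and several tissue cell types make other components.

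The deposited libraries held 12427 primary tumour cells with 173317475 UMIs and 11617 lymph node cells with 122207852 UMIs, of which 8756 and 9689 were kept. Of the UMIs of each gene, 19.6% (Serping1) to 42.7% (C3) lay in removed cells of the primary tumour, and 11.3% (C1qc) to 71.8% (C3ar1) in those of the lymph node, where C3 lost 57.8%. Clustering used none of the complement genes, and class names are short for cells like that type by marker genes. The 7 macrophage markers were all detected in primary tumour macrophages (2950 CPM in sum, CPM being the usual depth-scaled UMI count), as were the 6 fibroblast markers in fibroblasts (11658 CPM) and the 7 cancer markers in cancer cells of both libraries (4366 and 4983 CPM). Both libraries shared 47 cell barcodes, and the 31 of these kept in both held at most 21 UMIs of any of the 9 genes in either library. Each level is given in CPM for a class as a whole, and brackets hold its 95% exact Poisson interval. With 1 library per tissue no test was run and no difference has a replicate check, and the intervals cover counting error only.

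The 3 genes of the C1q chains lie next to each other on chromosome 4 of GRCm38, within 18.68 kb (chr4:136880129-136898803), in the order C1qb, C1qc, C1qa and all on the minus strand. C1qb (ENSMUSG00000036905) spans chr4:136880129-136886187, C1qc (ENSMUSG00000036896) chr4:136889804-136893065 and C1qa (ENSMUSG00000036887) chr4:136895917-136898803, and the longest transcript of each has 3 exons. C3 (ENSMUSG00000024164, chr17:57203970-57228136, 41 exons in the longest transcript) lies apart from C4b (ENSMUSG00000073418, chr17:34728380-34743882, 41 exons) and Cfb (ENSMUSG00000090231, chr17:34856374-34862518, 18 exons), which fall within 134.1 kb of each other. C3ar1 (ENSMUSG00000040552) lies at chr6:122847138-122856161, C5ar1 (ENSMUSG00000049130) at chr7:16246743-16259540 and Serping1 (ENSMUSG00000023224) at chr2:84765387-84775444. C4a, a near-identical copy of C4b, was not in the gene list, so reads of that copy could have been counted to C4b or discarded.

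RefSeq promoter windows (250 bases before to 50 after the start, GRCm38.p6) were found for 5 of the 9 genes. Those of C1qb and C1qc are shown because these neighbours had near-parallel levels across cell classes, and that of C3 because its pattern differed from theirs. All 3 are on the minus strand, at chr4:136886151-136886450, chr4:136892865-136893164 and chr17:57228087-57228386, and are written 5′ to 3′ in the direction of the gene. Capitals mark GAGGAA or its reverse complement, the core bound by the myeloid factor PU.1, in C1qb and C1qc, and TGNNGCAA or its reverse complement, bound by C/EBP factors, in C3.
C1qb: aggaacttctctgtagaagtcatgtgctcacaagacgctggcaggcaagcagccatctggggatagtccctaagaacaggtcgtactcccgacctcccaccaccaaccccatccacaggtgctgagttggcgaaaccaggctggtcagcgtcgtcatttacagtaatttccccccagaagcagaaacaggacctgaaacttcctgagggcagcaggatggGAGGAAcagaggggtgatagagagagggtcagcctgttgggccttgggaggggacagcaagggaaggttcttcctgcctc
C1qc: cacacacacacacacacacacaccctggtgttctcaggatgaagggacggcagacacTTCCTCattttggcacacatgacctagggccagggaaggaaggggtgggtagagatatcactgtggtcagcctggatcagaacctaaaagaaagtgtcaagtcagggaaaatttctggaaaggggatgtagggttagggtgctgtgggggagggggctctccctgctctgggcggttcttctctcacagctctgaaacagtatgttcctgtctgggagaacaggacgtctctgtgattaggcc
C3: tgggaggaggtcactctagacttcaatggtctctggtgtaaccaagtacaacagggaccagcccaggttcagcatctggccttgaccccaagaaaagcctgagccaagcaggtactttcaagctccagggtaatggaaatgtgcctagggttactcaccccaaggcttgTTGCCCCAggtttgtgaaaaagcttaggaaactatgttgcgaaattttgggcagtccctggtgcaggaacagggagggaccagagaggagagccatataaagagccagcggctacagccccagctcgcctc
GAGGAA began 30 bases upstream of the start in C1qb and 193 bases upstream in C1qc, and these letters were not in the windows of C3, C3ar1 and C5ar1. On either strand GAGGAA was present in 28.28% of 32851 promoter windows of the same length. TGNNGCAA was found in the C3 window alone among the 5, with its first base 81 bases upstream, and in 11.43% of all windows. The core of the interferon-stimulated response element, searched as GAAA, any 2 bases and GAAA, was in none of the 5 windows and in 3.443% of all. These matches are descriptions of sequence and say nothing of binding.

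C1q recognises antibody and dying cells, and its chains A, B and C assemble into 1 protein. C1q transcripts were found mainly in macrophages of both tissues. C1qa reached 728 CPM [695 to 762] in the 571 primary tumour macrophages (1816 UMIs), 160 CPM [142 to 179] in the 772 monocyte/macrophages and 1216 CPM [864 to 1662] in the 23 lymph node macrophages, where it rested on 39 UMIs. Every other named class of at least 20 cells was below 15 CPM. In the primary tumour, 75.4% of all C1qa UMIs lay in macrophages and 12.1% in monocyte/macrophages.

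In primary tumour macrophages C1qb stood at 595 CPM [565 to 626], in monocyte/macrophages at 181 CPM [162 to 202] and in lymph node macrophages at 1153 CPM [812 to 1590]. C1qc stood at 382 CPM [359 to 408], 78.5 CPM [66.1 to 92.4] and 904 CPM [605 to 1298] in the same classes. All 3 chains therefore had the same order of classes, and lymph node and primary tumour macrophages did not overlap in their counting intervals. The higher level in the lymph node was a log2 ratio of 0.76 [0.24 to 1.20] for C1qa, 0.97 [0.44 to 1.43] for C1qb and 1.26 [0.65 to 1.77] for C1qc. It rested on 32082 UMIs of cells with a median of 1058 UMIs, 16 of them from the cluster led by Gpnmb and 7 from the cluster led by Mrc1 and Ccl8, which in the primary tumour held 246 and 325 cells. Their macrophage markers summed to 1527 CPM with 1 of 7 at 0, close to the 1530 CPM of lymph node monocytes, which had none at 0. Without the upper limit on detected genes the lymph node C1qa level was 668 CPM in 32 cells, against 645 CPM in primary tumour macrophages, and that of C1qb was 599.7 CPM against 525 CPM.

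Of the 9 genes, 6 reached 100 UMIs in either macrophage class, of which 1 (C1qc) was at least 2-fold higher and 2 (C3ar1 and C5ar1) at least 2-fold lower in the lymph node. Over all genes tested this way, 12.5% were as much higher and 21.9% as much lower. The lymph node macrophages held 0 UMIs of C3ar1, which allows up to 93.5 CPM, and 1 of C5ar1, so both rested on almost no lymph node counts. All 6 genes reached the minimum through the primary tumour alone. The C1qc call did not hold without the upper gene limit (497 against 338 CPM), with doublets kept (633 against 337 CPM) or without the lymph node cell with most C1qc UMIs (701 CPM).

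**Figure D1:**
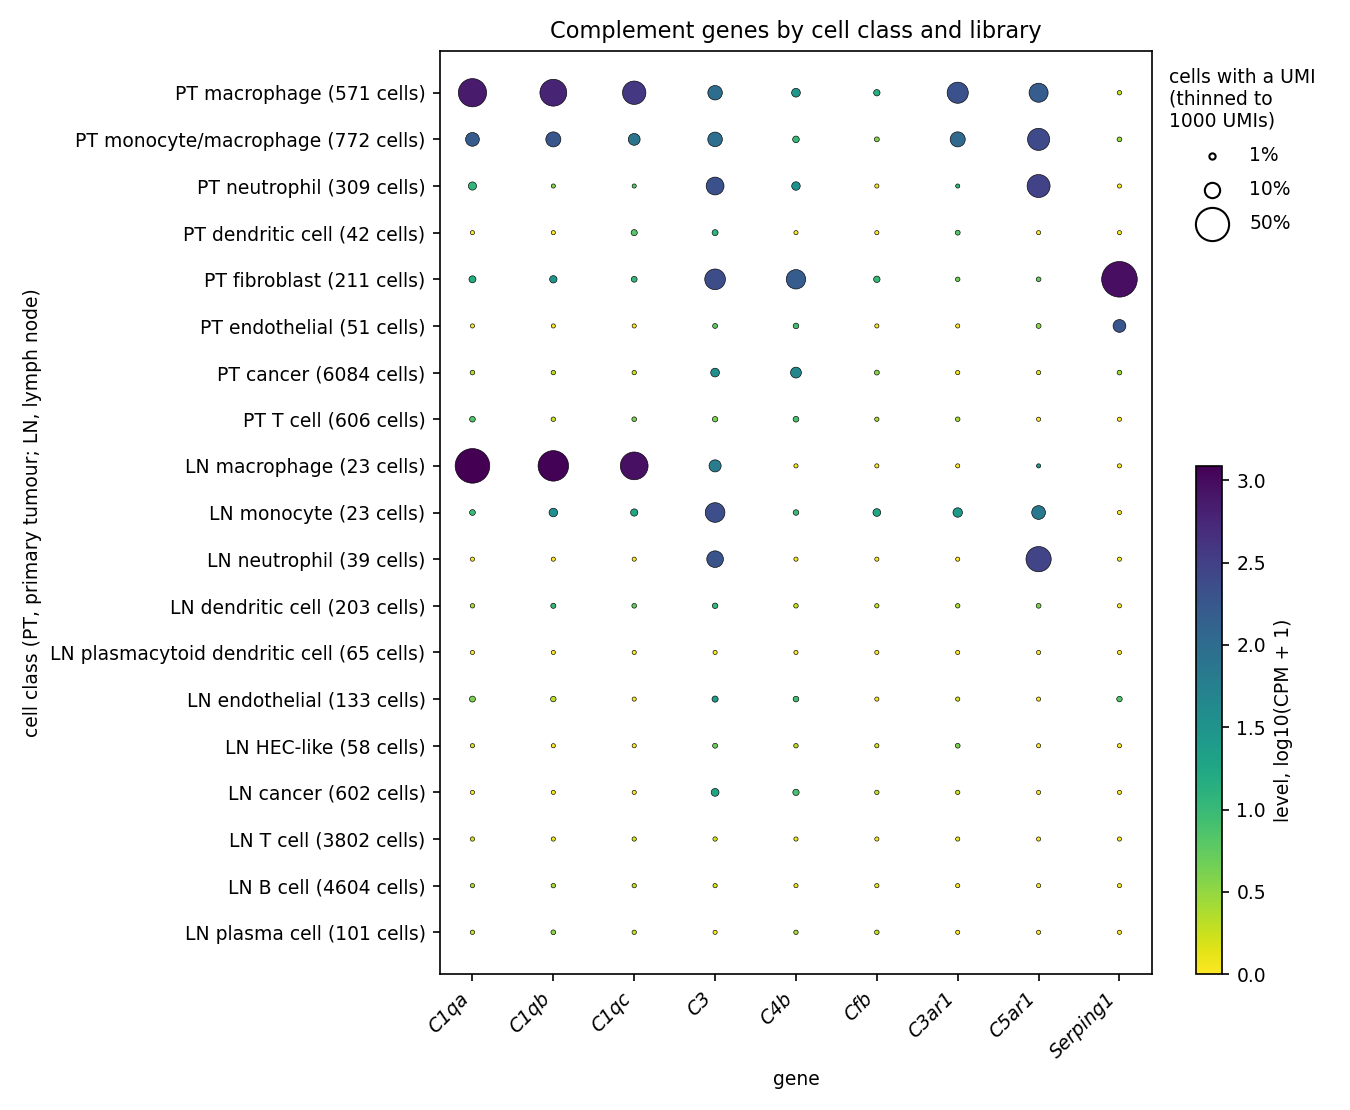
Levels of the 9 complement genes in every named class of at least 20 cells, with rows for cell classes of the primary tumour (PT) and lymph node (LN) and columns for genes. Colour gives log10(CPM + 1) and dot area the share of cells with a UMI after thinning to 1000 UMIs per cell, from 57.7% for Serping1 in fibroblasts down to 0%. The C1q chains are dark in macrophages, C5ar1 in neutrophils and monocyte/macrophages, Serping1 in fibroblasts, and C3 in fibroblasts, neutrophils and lymph node monocytes.

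After thinning each cell to 1000 UMIs, 36.0% of primary tumour macrophages had a C1qa UMI (48.2% unthinned), leaving out 45 shallower cells. In T cells, which should lack C1q, the thinned share was 0.687% (1.32% unthinned, 8 of 606 cells, 131 shallower cells left out), and the level was 6.06 CPM [2.61 to 11.9]. Median depths were 3537 UMIs in macrophages and 1589 in T cells. This level is given as a reference for free RNA, which puts UMIs into droplets of cells that do not express a gene. Primary tumour cancer cells were below it, at 1.27 CPM of C1qa and a median depth of 14168 UMIs. Their number gave them 5.11% of the library's C1qa UMIs. Depth differs between these classes, so CPM alone cannot show which UMIs are free RNA, and their source was not tested.

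The shares of the chains within C1q were compared between classes. In primary tumour macrophages, 42.7% of 4253 C1q UMIs were C1qa, 34.9% C1qb and 22.4% C1qc. In cancer cells the shares of 292 C1q UMIs were 42.1%, 35.3% and 22.6%, and their counting intervals covered the macrophage values. Monocyte/macrophages differed, with 38.1% C1qa and 43.2% [39.6 to 46.8] C1qb of 764 UMIs.

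All 3 chains were seen together in 182 of 571 primary tumour macrophages (31.9%), and at least 1 chain in 343 (60.1%). In lymph nodes the chains were carried by few cells: 203 C1q UMIs lay in 45 of 9689 cells. Of these UMIs, 5 macrophages with at least 10 each held 73 (36.0%). Another 17 lay in 1 B cell that had 8 B cell marker UMIs and 0 macrophage marker UMIs, and 16 in 1 cell of the dendritic cluster with 4 macrophage, 4 T cell and 0 dendritic cell marker UMIs. Whether these 2 droplets held RNA of more than 1 cell was not tested. In primary tumour fibroblasts, C1qa was 14.9 CPM and C1qb 29.9 CPM, but 1 cell with 19 macrophage marker UMIs held 10 of 20 and 22 of 40 UMIs. Without that cell the levels were 7.55 and 13.6 CPM.

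Within the mononuclear phagocytes of the primary tumour, C1qa covered a wide range between clusters. It was 1238 CPM [1178 to 1300] in the 325 macrophages led by Mrc1 and Ccl8, 408 CPM [350 to 473] in the 107 cells led by Mgl2 and MHC class II genes, and 163 CPM [141 to 188] in the 246 macrophages led by Cxcl5, Mmp12 and Gpnmb. The 285 cells led by Chil3 had 10.9 CPM [4.0 to 23.7] and overlapped with the T cell level. The 23 Vcan-led monocytes of the lymph node held 1 C1qa UMI.

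Mrc1 encodes a mannose receptor of tissue macrophages, and Gpnmb, Lpl and Mmp12 mark lipid-handling macrophages. Set against the Mrc1/Ccl8 macrophages, the Gpnmb macrophages were lower in C1qa (log2 ratio -2.92 [-3.15 to -2.71]), C1qb (-3.35 [-3.64 to -3.09]) and C1qc (-3.74 [-4.15 to -3.37]). They were higher in C3, the central component, at 152 against 51.1 CPM (log2 ratio 1.57 [1.16 to 2.00]). They were lower in the C3a receptor gene C3ar1, at 117 against 294 CPM, and in C5ar1, at 71.0 against 224 CPM.

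Of the 9 genes, 6 reached 100 UMIs in either group, of which 5 were at least 2-fold lower and 1 at least 2-fold higher in Gpnmb macrophages. Over the 2169 genes tested, 14.3% were as much lower and 10.4% as much higher. C1qc (60 and 894 UMIs), C5ar1 (84 and 294) and C3 (180 and 67) reached the minimum only through the group where they were higher. C3ar1 fell short of 2-fold with each library clustered on its own and with means of single-cell levels (log2 ratio -0.95 in both). C4b (12 and 57 UMIs) and Cfb (24 and 8 UMIs) fell under that minimum, with log2 ratios of -2.05 and 1.68. Depth hardly differed, with medians of 3668 and 3422 UMIs, and the thinned share of cells with C1qa was 14.8% against 50.8% (25.2% and 65.5% unthinned).

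**Figure D2:**
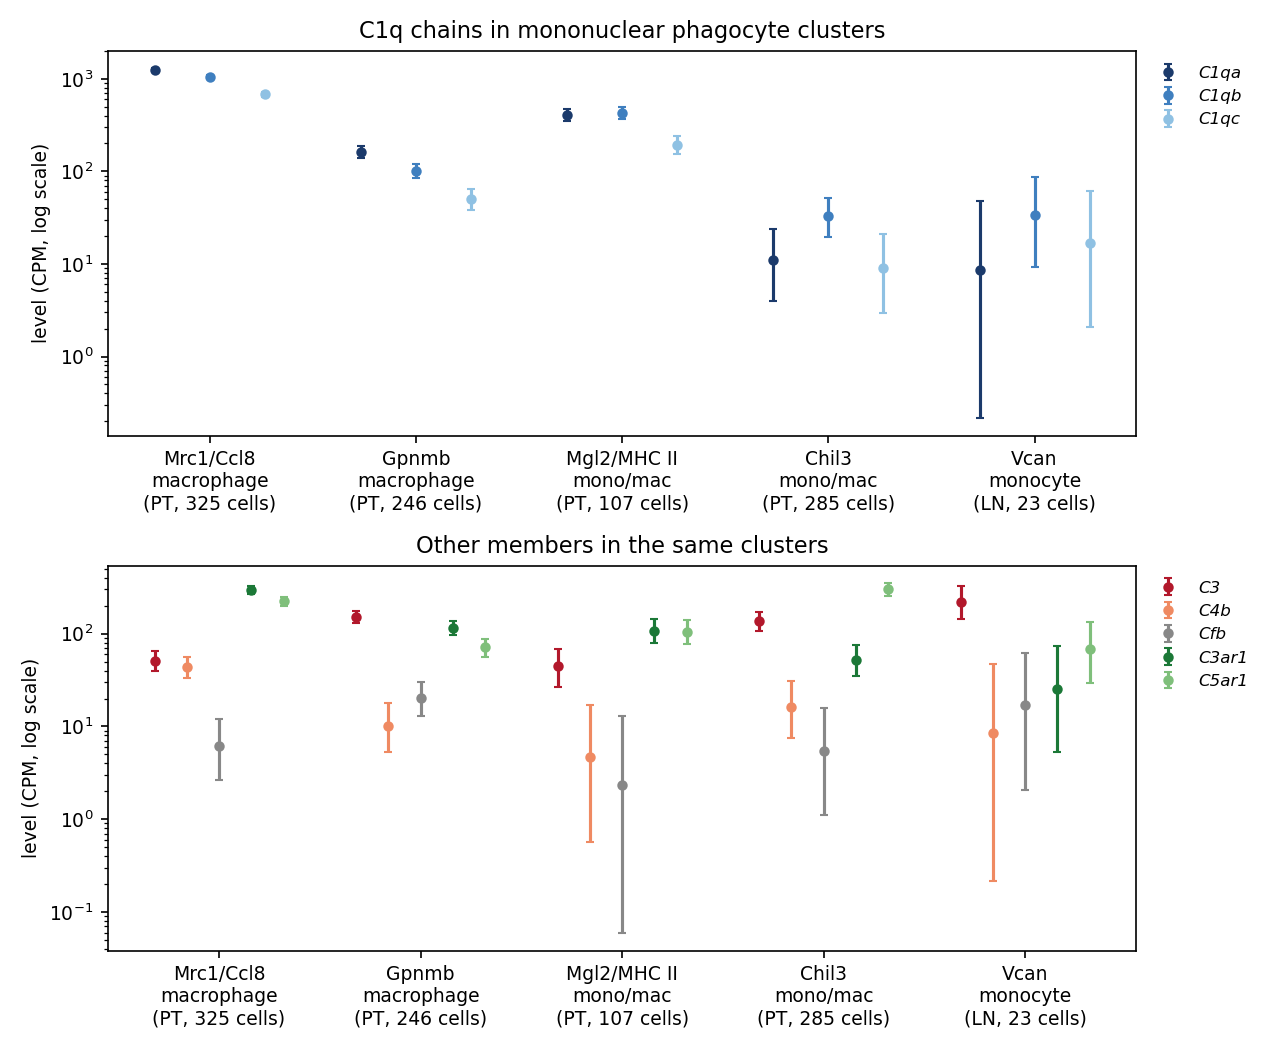
Levels in CPM (log axis) of the C1q chains (upper panel) and of C3, C4b, Cfb, C3ar1 and C5ar1 (lower panel) in clusters of macrophages, monocyte/macrophages (mono/mac) and monocytes, with 95% exact Poisson intervals as bars. The C1q chains were highest in the Mrc1/Ccl8 cluster (C1qa 1238 CPM) and lowest in the Chil3 and Vcan clusters, whereas C3 was higher in the Gpnmb cluster (152 CPM) than in the Mrc1/Ccl8 cluster (51.1 CPM).

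C3, C4b and Cfb encode the proteins that carry the cascade forward. C3 was spread over stromal and myeloid cells. Its level was 234 CPM [209 to 262] in the 211 primary tumour fibroblasts, 221 CPM [144 to 324] in the 23 lymph node monocytes (26 UMIs), 205 CPM [162 to 257] in primary tumour neutrophils and 195 CPM [117 to 304] in lymph node neutrophils. These 4 intervals overlapped, so no order among them is given. Primary tumour macrophages (99.0 CPM [87.1 to 112]) and monocyte/macrophages (95.5 CPM [81.8 to 111]) came next, and T cells had 3.03 CPM in the primary tumour and 0.533 CPM in the lymph node.

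Cancer cells had 35.0 CPM of C3 [33.9 to 36.2] in the primary tumour, but as the largest class they held 79.5% of its C3 UMIs. Of the 309 primary tumour neutrophils, 247 had fewer than 1000 UMIs, and 1 cell held 14 of their 76 C3 UMIs (170 CPM without it). The mean of single-cell levels put fibroblast C3 at 359 CPM. Among classes too small for a level, 4 lymph node fibroblasts held 63 C3 UMIs, 55 of them in 1 cell.

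C4b, the precursor of the C4 that C1s cuts, was at 156 CPM [136 to 179] in primary tumour fibroblasts and 44.1 CPM [42.8 to 45.4] in cancer cells, which held 92.0% of the library's C4b UMIs. Macrophages had 27.7 CPM [21.5 to 35.0] and T cells 6.81 CPM [3.12 to 12.9]. Neutrophils had 32.4 CPM [16.7 to 56.5] on 12 UMIs, 6 of them in 1 cell, beside 2010 CPM of the 7 cancer markers in sum (315 CPM in T cells); the part of other cells' RNA in that level was not tested. The mean of single-cell levels put fibroblast C4b at 288 CPM.

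Cfb, which encodes factor B, was low throughout. Its largest counts in the primary tumour were 259 UMIs in cancer cells (2.67 CPM [2.35 to 3.01]), 32 in macrophages (12.8 CPM [8.78 to 18.1]) and 13 in fibroblasts (9.71 CPM [5.17 to 16.6]). The T cell interval of 1.51 CPM [0.183 to 5.47] covered the level of cancer cells but rested on 2 UMIs. The highest value, 17.0 CPM in lymph node monocytes, also rested on 2 UMIs.

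The fibroblast clusters differed widely in C3 and C4b. The 42 fibroblasts led by Dpt and Apod had 1430 CPM of C3 [1239 to 1643], the 33 led by Postn and Mfap5 had 371 CPM [293 to 464], and the 117 led by Tagln, Postn and Acta2 had 37.3 CPM [24.8 to 53.9]. C4b followed the same order, at 1166 CPM [994 to 1359], 149 CPM [101 to 212] and 17.3 CPM [9.22 to 29.6]. Dpt encodes the matrix protein dermatopontin, and Acta2 the smooth muscle actin of contractile fibroblasts.

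Dpt fibroblasts were higher than Acta2 fibroblasts by a log2 ratio of 5.24 [4.69 to 5.89] for C3 and 6.02 [5.26 to 7.01] for C4b. The difference for Serping1 was 0.74 [0.51 to 0.96]. These were the 3 of the 9 genes with 100 UMIs in either group, and 2 of them were at least 2-fold higher, against 6.93% of the 1184 genes tested (19.4% as much lower, all-gene median -0.28). Both reached the minimum only through the Dpt fibroblasts, where they were higher (200 and 28 UMIs of C3, 163 and 13 of C4b), so nothing is read from that count. After thinning, 60.5% of Dpt and 3.23% of Acta2 fibroblasts had a C3 UMI (78.6% and 11.1% unthinned), at median depths of 2755 and 5774 UMIs. In alternative processing the cluster with the most Acta2 changed to one of 20 to 75 cells, and the C3 ratio ranged from 3.79 to 6.65 and that of Serping1 up to 2.87.

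Fibroblasts as a whole were higher than cancer cells of the primary tumour, by a log2 ratio of 2.74 [2.57 to 2.91] for C3, 1.83 [1.62 to 2.02] for C4b and 1.92 [0.94 to 2.66] for Cfb. All 6 of the 9 genes with 100 UMIs in either class were at least 2-fold higher in fibroblasts, where 15.8% of all genes tested were (19.4% as much lower). Cfb, C1qa and C1qb reached the minimum through cancer cells alone. Nothing is read from this count. In CPM, C1qa, C1qb and Cfb of cancer cells did not exceed their T cell intervals. Those intervals rested on 8, 1 and 2 UMIs of shallower cells, so they do not show whether cancer cells express these genes. In addition, 1 fibroblast with macrophage markers held 10 of 20 C1qa and 22 of 40 C1qb UMIs.

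Across cancer clusters of the primary tumour, C3 and C4b did not follow each other. C3 was highest in the 310 cells led by Cyp1a1 (92.6 CPM [85.8 to 99.8]) and in the 1508 led by Cenpf and other cell cycle genes (54.7 CPM [52.2 to 57.2]), and lowest in the 1116 led by Slurp1 (10.2 CPM [8.71 to 11.9]). C4b was highest in the 1652 cells led by Tnfrsf11b and Elf3 (70.1 CPM [66.2 to 74.3]), with 54.3 CPM [50.7 to 57.9] in the Slurp1 cells and 29.9 CPM [28.1 to 31.8] in the Cenpf cells. The Elf3 cells had 15.8 CPM of C3 [14.0 to 17.9]. The Slurp1 and Elf3 clusters were thus low in C3 and high in C4b, and the Cenpf cluster the reverse. Cfb ranged from 1.63 CPM in the Cyp1a1 cluster to 4.82 CPM in the cluster led by Tff1, and was at 0 UMIs in a shallow cluster of 88 cells.

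**Figure D3:**
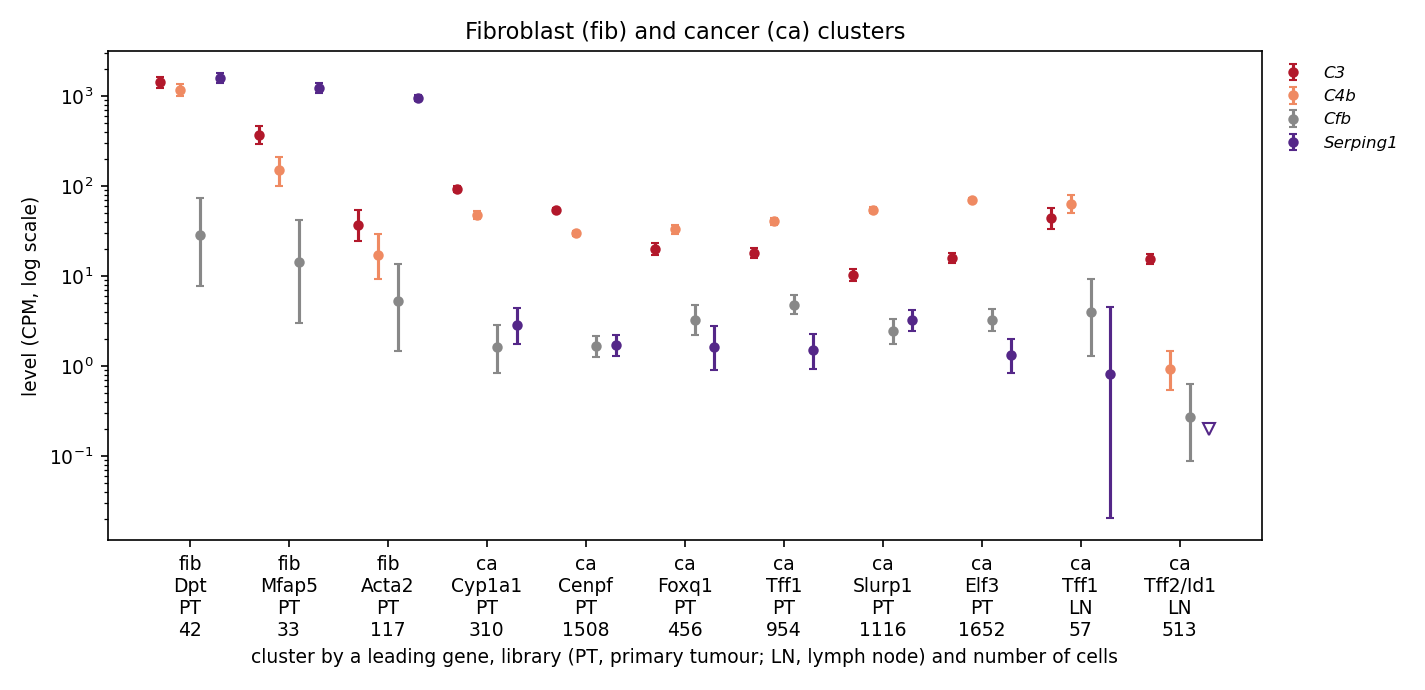
Levels in CPM (log axis) of C3, C4b, Cfb and Serping1 in fibroblast (fib) and cancer (ca) clusters of the primary tumour (PT) and lymph node (LN), with 95% exact Poisson intervals as bars, the leading gene and the number of cells below each. The open triangle marks a count of 0, drawn at the upper limit it allows. C3 and C4b fall from the Dpt to the Acta2 fibroblasts, and C4b is near 1 CPM in the lymph node cluster led by Tff2 and Id1.

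Cancer cells were the largest non-immune class of both tissues, so the 9 genes were set side by side there. C3 was lower in the lymph node cancer cells, at 18.4 CPM [16.6 to 20.4] in 602 cells against 35.0 CPM in 6084, a log2 ratio of -0.93 [-1.09 to -0.77]. C4b was 6.80 CPM [5.71 to 8.03] against 44.1 CPM (-2.69 [-2.95 to -2.45]), and Cfb was 0.837 CPM on 17 UMIs against 2.67 CPM (-1.63 [-2.47 to -0.96]).

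Of the 9 genes, 6 reached 100 UMIs in either library, and 5 of these were at least 2-fold lower in the lymph node and 0 at least 2-fold higher. Over the 10741 genes tested, 9.36% were as much lower and 4.64% as much higher, with a median log2 ratio of -0.18. C4b and C3 reached the minimum in both libraries, and the other 4 only through the primary tumour, where they were higher, so nothing is read from that count. C1qa, C1qb and Serping1 were at 2 CPM or less in primary tumour cancer cells and had 1 UMI each in the lymph node. When each library was clustered on its own, the Serping1 log2 ratio was -0.37. Lymph node cancer cells had a median of 35092 UMIs against 14168, and among cells of 20000 to 40000 UMIs the C3 ratio was -1.09.

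The lymph node cancer cells were not uniform. A cluster of 513 cells, all from the lymph node and led by Tff2, Id1 and Krt7, had 15.5 CPM of C3 [13.8 to 17.4], 0.926 CPM of C4b [0.539 to 1.48] and 5 UMIs of Cfb. The other 89 cells fell into clusters that were mostly primary tumour, and had 46.1 CPM of C3 [37.0 to 56.7], 62.6 CPM of C4b [52.0 to 74.8] and 12 UMIs of Cfb (6.21 CPM). So 121 of the 138 C4b UMIs of lymph node cancer cells lay in 89 of 602 cells.

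The log2 ratio of the 513 cells over the 89 was -6.04 [-6.91 to -5.34] for C4b and -1.58 [-1.92 to -1.21] for C3. Both of the 9 genes with 100 UMIs in either group were at least 2-fold lower, against 4.47% of all genes tested (8.93% as much higher). C3 (285 and 89 UMIs) reached the minimum through the 513 cells, and C4b (17 and 121 UMIs) only through the 89 cells, where it was higher. Without the 89 cells, the log2 ratio of lymph node over primary tumour was -5.53 for C4b, -3.16 for Cfb and -1.17 for C3. Without the upper limit on detected genes, which kept more lymph node cancer cells, it was -3.84 for C4b and -2.96 for Cfb. For a cluster found in 1 library only, a property of the library and one of the cells cannot be told apart.

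Within the cluster led by Tff1, which held cells of both tissues, the direction was the opposite. Its 57 lymph node cells had 44.2 CPM of C3 [33.3 to 57.6] and 63.5 CPM of C4b [50.3 to 79.2], against 18.0 CPM [15.9 to 20.4] and 40.5 CPM [37.2 to 44.0] in its 954 primary tumour cells. The log2 ratios were 1.31 [0.85 to 1.72] for C3 and 0.66 [0.29 to 0.99] for C4b, beside an all-gene median of -0.10. Median depths were 20740 and 13047 UMIs. Cfb, at 4.02 and 4.82 CPM, overlapped in its intervals.

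**Figure D4:**
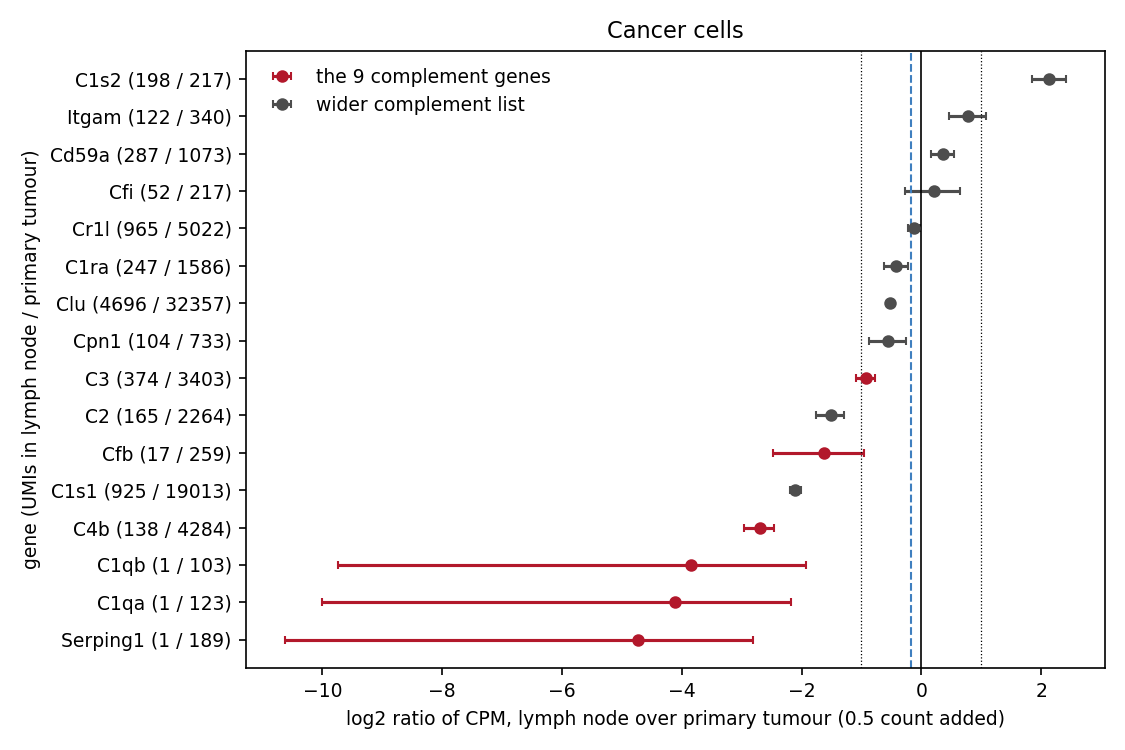
Log2 ratio of CPM in lymph node over primary tumour cancer cells for genes that reached 100 UMIs in the lymph node or the primary tumour, with 95% exact intervals as bars and the UMIs of both libraries in brackets. Red points are the 9 genes and grey points other complement genes. The solid line is 0, the dotted lines mark 2-fold and the dashed line the median of all genes (-0.18). C3, Cfb and C4b lie at -0.93, -1.63 and -2.69, and the points with the widest bars rest on 1 lymph node UMI each.

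C3ar1 and C5ar1 encode the receptors through which C3a and C5a act on leukocytes. C3ar1 was highest in primary tumour macrophages (210 CPM [192 to 229], 46.4% of cells with a UMI, 19.8% after thinning), followed by monocyte/macrophages (109 CPM [94.6 to 125]), and these classes held 67.8% and 25.7% of its UMIs. Neutrophils had 4 C3ar1 UMIs in 309 cells (10.8 CPM [2.94 to 27.6]). T cells had 1.51 CPM. In the lymph node, 31 C3ar1 UMIs were left after filtering, 15 of them in 15 cancer cells of the Tff2/Id1 cluster with 1 each (0.817 CPM) and 6 among the 58 cells like those of high endothelial venules (HEC-like). C3ar1 lost 71.8% of its lymph node UMIs with the removed cells, the most of the 9 genes.

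C5ar1 had a different order. It was 302 CPM [249 to 364] in primary tumour neutrophils, 287 CPM [191 to 414] in lymph node neutrophils, 245 CPM [223 to 269] in monocyte/macrophages and 152 CPM [137 to 168] in macrophages. The first 3 overlapped in their intervals, whereas macrophages were below them. T cells of both tissues held 0 C5ar1 UMIs, which allows up to 2.27 CPM in the primary tumour and 0.229 CPM in the lymph node. The mean of single-cell levels put primary tumour neutrophils at 453 CPM. Among phagocyte clusters, C5ar1 was 301 CPM [257 to 351] in the Chil3 cells, where C3ar1 was 52.7 CPM [35.3 to 75.6]. Both receptor genes were thus found in mononuclear phagocytes. Neutrophils were among the highest classes for C5ar1, together with monocyte/macrophages, but overlapped with T cells in C3ar1.

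Serping1, the inhibitor of C1r and C1s, was found mainly in fibroblasts. It reached 942 CPM [891 to 996] in primary tumour fibroblasts, which held 73.4% of its UMIs there, and 87.2% of fibroblasts had a UMI (57.7% after thinning). Over the fibroblast clusters of at least 20 cells it stood at 1588 CPM [1386 to 1811] in Dpt, 1243 CPM [1096 to 1404] in Mfap5 and 953 CPM [884 to 1025] in Acta2 fibroblasts, a narrower range than that of C3 or C4b. The log2 ratio of fibroblasts over cancer cells (1.95 CPM) was 8.92 [8.70 to 9.15]. Macrophages held 2 Serping1 UMIs (0.802 CPM), and T cells of both tissues 0.

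Primary tumour endothelial cells appeared next at 184 CPM [144 to 231], but 59 of their 74 Serping1 UMIs lay in 1 cell that also had 209 UMIs of mural cell markers. Without it the level was 39.1 CPM. In the lymph node, all 11 Serping1 UMIs of the 133 endothelial cells lay in 1 cell, which also held 44 of their 47 C3 UMIs and 10 of their 14 C4b UMIs. This cell had 34 fibroblast, 37 lymphatic and 3 endothelial marker UMIs, and without it endothelial C3 was 1.62 CPM. The 4 lymph node fibroblasts held 19 of the 31 Serping1 UMIs of that library. The 58 cells like high endothelial venule cells had 7 C3 UMIs (3.75 CPM), 6 of C3ar1 and at most 2 of any other of the 9 genes, at a median depth of 32110 UMIs.

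Over the 19 class profiles with at least 20 cells, levels of the C1q chains were near-parallel, with Pearson r of log2(CPM + 10) between 0.978 and 0.987. C3 was closest to C5ar1 (0.784) and C4b to Serping1 (0.635) among the other members. Outside the complement list and over 11515 genes, Ccl12, Mmp13 and Mmp12 were most like C1qa (0.991, 0.975 and 0.969), Mrc1, Ccl12 and Mmp13 most like C1qb, and Ccl12, Mrc1 and Mmp13 most like C1qc. Ccl12 encodes a monocyte-attracting chemokine. For C3 they were Thbs1, Rab31 and Cebpb (0.937, 0.894 and 0.867), for C4b Has1, Tnxb and Bgn (0.930, 0.922 and 0.886), and for Cfb Abca9, Vcan and Tnfsf12 (0.840, 0.825 and 0.815). For C3ar1 they were F7, Aoah and Clec4a1 (0.966, 0.962 and 0.922), for C5ar1 Slc11a1, Clec4e and Acod1 (0.985, 0.983 and 0.983), and for Serping1 Igfbp5, Mgp and Col6a1 (0.996, 0.994 and 0.993). Profiles of 1 library share its depth and free RNA, so these values are descriptions. They also take each class as a whole. Within macrophages, C1qa was lower in the cluster led by Cxcl5, Mmp12 and Gpnmb than in the Mrc1/Ccl8 cluster.

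The rest of the pathway was read from a wider list of 46 complement genes, of which 45 were in the gene list, 17 reached 20 CPM in some class and 5 had no UMI in kept cells. Of the genes of the C1 proteases and their substrate, C1s1, C1ra and C2 were highest in fibroblasts. C1s1 had 236 CPM [211 to 263] in fibroblasts and 196 CPM [193 to 199] in primary tumour cancer cells, C1ra 82.1 and 16.3 CPM, and C2 82.9 and 23.3 CPM. C1s1 was 108 CPM [77.1 to 147] in primary tumour neutrophils, 59.6 CPM [38.2 to 88.6] in endothelial cells and 11.4 CPM in T cells. Cancer markers summed to 2010 CPM in these neutrophils and 906 CPM in the endothelial cells, and lymph node neutrophils held 0 C1s1 UMIs. The part of other cells' RNA in these levels was not tested. The C1ra intervals of endothelial cells (17.4 CPM) and macrophages (14.8 CPM) covered its cancer cell level. However, 1 cell held 6 of the 7 endothelial C1ra UMIs, and 1 cell 10 of the 24 of C1s1. The scavenger receptor Colec12, at 88.1 CPM, and Cd59a, which blocks the membrane pore, at 23.9 CPM, were highest in fibroblasts. Clusterin (Clu) was highest in cancer cells, at 333 CPM in the primary tumour and 231 CPM in the lymph node.

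Properdin (Cfp), which stabilises the alternative pathway enzyme, was 167 CPM [152 to 184] in primary tumour macrophages and 312 CPM [149 to 573] in those of the lymph node. The integrin genes of the complement receptors were highest in mononuclear phagocytes, with Itgam at 532 CPM and Itgb2 at 328 CPM in monocyte/macrophages and Itgax at 120 CPM in macrophages. Cd93 was 931 CPM in primary tumour endothelial cells. B cells of the lymph node led in Cd55 (285 CPM) and in the complement receptor Cr2 (68.2 CPM), and Cr1l was 89.3 CPM in primary tumour T cells and 87.1 CPM in B cells. C6 and Fcna passed 20 CPM through 2 and 1 UMIs in lymph node macrophages.

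In cancer cells, 11 of the 45 genes reached 100 UMIs in either library, and 2 were at least 2-fold lower and 1 at least 2-fold higher in the lymph node, beside the 9.36% and 4.64% of all genes. Their median log2 ratio was -0.24. The lower ones were C1s1 (log2 ratio -2.10 [-2.20 to -2.01]) and C2 (-1.52 [-1.76 to -1.29]). Within the Tff1 cluster, C1s1 was at -0.29 [-0.56 to -0.04] and C2 at -0.10 [-0.98 to 0.59]. The higher one was C1s2 (2.13 [1.84 to 2.41]), named after its values were seen since it was under 20 CPM in these cells, and a close copy of C1s1, so the split of reads between them is uncertain. In Gpnmb over Mrc1/Ccl8 macrophages, 5 reached the minimum, with Cd93 at -3.08, Itgax at 1.88, Itgb2 at 1.09, Cfp at -0.79 and Itgam at 0.31, so that 1 was at least 2-fold lower and 2 at least 2-fold higher, beside 14.3% and 10.4% of all genes. Cd93 (35 and 333 UMIs) and Itgax (230 and 69) reached the minimum only through the group where they were higher. In fibroblasts over cancer cells 12 did, of which 6 were at least 2-fold higher and 2 at least 2-fold lower, beside 15.8% and 19.4% of all genes. Colec12 (118 and 16 UMIs), Clu (37 and 32357) and Cpn1 (0 and 733) reached it only through the class where they were higher.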

How the data were processed

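Cells of 1 primary tumour library and 1 lymph node library, each pooled from 6 mice, were read on a droplet 3′ platform. The deposited values are raw UMI counts per gene and cell, which the authors made with Cell Ranger on GRCm38; the submitters' processing notes give version 2.1.1 and the matrix headers 5.0.0. Depth was 173317475 and 122207852 UMIs, with medians of 9161 and 2630 per cell.

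Following the study's stated limits, a cell needed more than 200 and up to 6000 detected genes and no more than 5% mitochondrial UMIs. Scrublet marked 391 primary tumour doublets by its automatic threshold. In the lymph node the automatic call marked under 0.5% of cells, so the 616 cells with the highest 6% of scores were taken as doublets. Both libraries were clustered together without integration (scanpy 1.11.5, leidenalg 0.10.2, 3056 variable genes with all complement genes left out, 30 components, 15 neighbours, resolution 1, subclusters 0.5). Clusters were named from marker lists, and a class under 20 cells is given by UMIs alone.

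Counts were summed per library and class and divided by total UMIs (CPM). Intervals are 95% exact Poisson for levels, exact conditional for ratios and Clopper-Pearson for shares, and cover counting error only. A ratio adds 0.5 to both counts and needs 100 UMIs in either group, and at least 2-fold counts as higher or lower. A count of 0 allows up to 3 counts. Shares with a UMI are the expected shares after thinning to 1000 UMIs, leaving out shallower cells. Likeness is Pearson's r over classes of log2(CPM + 10), for genes with at least 200 UMIs. With 1 library per tissue, no test was made.

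The genes named outside the 9 were those of the wider complement list at 20 CPM or more in a class, the 3 with the most similar profile, the leading genes of clusters and, outside that rule, C1s2. The members and lists were chosen with earlier results of these data known, and the rules for naming clusters and picking the Gpnmb, Dpt, Acta2 and Tff1 clusters were set after seeing them. The computations were tested on simulated data (numpy 2.4.6, scipy 1.17.1, pandas 2.3.3, Python 3.11.15). Alternatives were other gene and mitochondrial limits, keeping doublets, another cluster resolution, clustering each library on its own, means of single-cell levels and no gene minimum. Of the wider list 1 gene, and of the monocyte/macrophage clusters 1, entered the counts and class levels but are not reported by value here.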

Additional observations from a re-analysis of the deposited data

Results flagged for a closer look

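The 88 primary tumour cells that could not be named carried complement transcripts and entered no comparison above. Their C1qa level was 173.5 CPM (145 UMIs), above the 6.06 CPM of T cells in that library. Their C1qb level was 135.2 CPM (113 UMIs), against 0.757 CPM in T cells. Only 14 of the 88 cells held a C1q UMI, and 1 cell held 112 of their 336 C1q UMIs. Their Serping1 level was 225.0 CPM (188 UMIs), where T cells had 0 UMIs. All 188 Serping1 UMIs lay in a cluster of 31 cells with both fibroblast and cancer markers. Another 18 of the unnamed cells formed a cluster with macrophage and cancer markers together. Whether these droplets held more than 1 cell was not tested.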

How the results depend on the processing

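Over 39 results and 273 alternative values, 204 stayed within their limits, 69 moved and 0 reversed. The limits were mostly the counting intervals, which are wide for results on few UMIs. Only ratios could be called reversed, and the comparison within the Tff1 cluster was not among the results. Without the upper gene limit, C1qa in lymph node macrophages was 668 CPM (1216 in the report), C3ar1 in primary tumour macrophages 191 (210), C5ar1 in neutrophils 418 (302), the thinned C1qa share 27.3% (36.0%), and the log2 ratios -1.39 for C3 (-0.93) and -2.96 for Cfb (-1.63) in cancer cells and -2.54 for C1qa in Gpnmb macrophages (-2.92). With doublets kept, C3ar1 was 184, C5ar1 432, the C1qa share 28.4% and the Gpnmb ratio -2.58. With each library clustered on its own, fibroblast C3 was 192 CPM (234), C4b 133 (156) and Serping1 769.5 (942), C3ar1 was 185, the C3 cancer ratio -0.56 and the Gpnmb ratio -2.60. With means of single-cell levels, C3 was 359, C4b 288, C5ar1 453 and Serping1 1081 CPM, the C3 ratio -0.46 and the Gpnmb ratio -2.32. Without the lymph node cells of shared clusters the C3 ratio was -1.17 and the Cfb ratio -3.16, and at 20000 to 40000 UMIs the C3 ratio was -1.09. The unthinned C1qa share was 48.2%. With no gene minimum, 25.3% of all genes differed by at least 2-fold in cancer cells against 14.0%. The causes were not tested. The class with the highest C3 became primary tumour neutrophils with doublets kept or with separate clustering, and the few primary tumour monocytes without the gene limit. At Leiden resolution 1.5 the highest C5ar1 was in lymph node neutrophils and the highest Cfb in lymph node macrophages. Separate clustering left fewer than 20 lymph node macrophages, so C1q was then highest in those of the primary tumour. No paired analysis was possible because each tissue is 1 library. Depth limits Cfb outside primary tumour cancer cells, and all 9 genes in lymph node macrophages, fibroblasts and monocytes, and pooled mice hide the spread between animals.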
